A study of Mus musculus with 32 samples.

Results

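Hba-x, Hbb-y and Hbb-bh1, the 3 embryonic globin genes of the mouse, were followed across single cells of organs at midgestation. They were chosen by name from the 23154 genes of the expression tables, with no threshold on their values, although earlier results of these data were known at that time. Their levels were read in 1805 distinct cells out of the 1916 deposited, from 7 C57BL/6J embryos, of which 3 were at embryonic day 9.5 (E9.5), 2 at E10.5 and another 2 at E11.5, with no treatment and no engineered allele in any group. By the labels, E9.5 embryo 2 was female and the others were male. The 8 organs were the liver, lung, heart, skin, somite, intestine, hindbrain and forebrain. Of these cells, 1801 carried one of the 4 major groups of the study: 246 hematopoietic, 382 neuronal, 869 mesoderm-derived and 304 epithelial cells. The latter 3 groups are called non-blood cells here and comprise 1555 cells. Cells came in 32 libraries, each a pool of barcoded cells that were picked by mouth pipette after blood had been washed off the embryo. E9.5 embryos 1 and 2 gave 1 library per organ and are labelled HiSeq 2500, while E9.5 embryo 3, whose organs were pooled, and the E10.5 and E11.5 libraries, each of which held both embryos, are labelled HiSeq 4000. Depth ran from 20326 to 2524348 UMIs per cell with a median of 306271, and E9.5 embryo 2 was the deepest embryo, with a median of 928653.

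Hemoglobin is a tetramer of alpha-like and beta-like globin chains, each of which holds a heme that binds oxygen. The first red cells of the mouse, the primitive erythroid cells, arise in the yolk sac, circulate through the whole embryo and carry embryonic chains. Hba-x encodes the embryonic alpha-like chain zeta, and Hbb-y and Hbb-bh1 encode the embryonic beta-like chains epsilon-y and beta-h1. Definitive red cells, which the fetal liver begins to produce from erythro-myeloid progenitors at this age, rely on the adult genes Hba-a1, Hba-a2, Hbb-bs and Hbb-bt.

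The alpha-like and beta-like genes lie in separate clusters of the genome. In GENCODE M21 (GRCm38), Hba-x (ENSMUSG00000055609.8) spans chr11:32276400-32278116 on the plus strand, Hbb-y (ENSMUSG00000052187.4) spans chr7:103851749-103853216 on the minus strand and Hbb-bh1 (ENSMUSG00000052217.6) spans chr7:103841637-103843164 on the minus strand, 8584 bases from Hbb-y. Each is protein coding, with at most 3 exons. The coding sequences of the 2 beta-like members are 441 bases long and differ at 104 bases, an identity of 76.4%, whereas Hba-x is 61.7% identical to Hba-a1. A stretch of 60 coding bases (positions 26 to 85, counted from the A of the start codon) is shown as an example, with the 25 differing bases in capitals. The protocol tags the 3′ end of transcripts, so the reads compared here need not cover this stretch.
Hbb-y: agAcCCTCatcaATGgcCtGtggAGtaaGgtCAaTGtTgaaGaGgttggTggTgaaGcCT
Hbb-bh1: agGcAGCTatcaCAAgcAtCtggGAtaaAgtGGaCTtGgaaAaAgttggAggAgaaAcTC

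No stretch of 100 bases in the annotated transcripts of any of the 3 members recurs in another gene, so a uniquely mapped read of that length can be assigned to its member. The adult genes differ in this respect. Of their stretches of 100 bases, Hba-a1 shares 63.3% with Hba-a2, and Hbb-bs shares 49.7% with Hbb-bt.

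Promoters are shown for the members that the RefSeq table of GRCm38.p6 lists, since the mean levels of the members were alike across sets of cells. The 250 bases before the RefSeq start of Hba-x are chr11:32276350-32276599 (plus strand) and those of Hbb-y are chr7:103853208-103853457 (minus strand). Capitals mark matches on either strand to 4 short motifs: GATAA, the core of the GATA factor motif; CACCC, a core bound by KLF factors; the CCAAT box; and the TATA box, searched as TATAAA. No pair of these matches overlaps.
Hba-x: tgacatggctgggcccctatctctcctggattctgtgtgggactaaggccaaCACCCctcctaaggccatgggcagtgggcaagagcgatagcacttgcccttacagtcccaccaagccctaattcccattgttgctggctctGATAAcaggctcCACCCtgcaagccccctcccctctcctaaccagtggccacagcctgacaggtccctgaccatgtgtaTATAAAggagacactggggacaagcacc
Hbb-y: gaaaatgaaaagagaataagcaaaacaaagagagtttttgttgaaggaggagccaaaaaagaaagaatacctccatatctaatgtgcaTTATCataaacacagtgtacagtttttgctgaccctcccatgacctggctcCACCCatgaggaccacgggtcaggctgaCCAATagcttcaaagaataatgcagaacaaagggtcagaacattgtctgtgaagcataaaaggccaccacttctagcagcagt

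GATAA and CACCC occur together in both of these promoters, and in 10.1% of 32851 mouse promoters of the same length. Singly, GATAA was found in 22.6% of those promoters and CACCC in 52.0%. CCAAT, present for Hbb-y, was found in 33.9%, and TATAAA, present for Hba-x, in 12.4%.

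The 3 members supplied nearly all hemoglobin UMIs of the study. A UMI is a random tag that marks 1 captured molecule, and levels count a gene's UMIs in each 1000000 of its cell, which the authors call TPM and which hold no gene length. Summed over the 1805 cells, Hbb-y had 1452249 UMIs, Hba-x 1114974 and Hbb-bh1 1024492. Of the remaining hemoglobin genes, Hbq1b, the theta alpha-like gene, had 9144 UMIs, Hbq1a 162, Hbb-bh2 25, Hba-a2 4 and Hbb-bs 2. Hba-a1 and Hbb-bt had 0 UMIs, as did the further entries Hbb-b1 and Hbb-b2. Over the 121113981 UMIs of the hematopoietic cells, 0 allows up to 0.0248 TPM of counted UMIs each. This is no limit on expression, since the coding sequences of Hba-a1 and Hba-a2, and of Hbb-bs and Hbb-bt, differ at only 1 base. The authors counted uniquely mapped reads, and the part that this rule has in the near absence of the adult genes was not tested.

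Averaged over embryos, hematopoietic cells had the highest mean of all 3 members. On the scale of the study, log2(TPM/10 + 1), the mean of the 7 embryos in hematopoietic cells was 6.93 ± 2.99 (SD) for Hba-x, 7.52 ± 2.75 for Hbb-y and 7.25 ± 2.81 for Hbb-bh1. Neuronal cells followed with 4.38 ± 1.999, 5.197 ± 2.57 and 3.88 ± 1.87 (6 embryos), mesoderm-derived cells with 2.72 ± 0.74, 3.19 ± 0.67 and 2.44 ± 0.66, and epithelial cells with 1.26 ± 0.78, 1.64 ± 0.75 and 1.27 ± 0.56 (7 embryos each, in the same order of genes). Hematopoietic and neuronal means differed by about the spread between embryos, as did neuronal and mesoderm-derived means, so the order of these neighbours is not firm. The median over single cells was higher in neuronal cells for Hba-x (222 against 208 TPM) and Hbb-y (502 against 380 TPM). For Hbb-bh1 it was lower (149 against 382 TPM). In E10.5 embryo 2 and both E11.5 embryos, neuronal means of Hba-x and Hbb-y exceeded hematopoietic ones. For Hbb-y they were 7.10 against 6.47, 7.17 against 6.08 and 6.43 against 4.64. In the other embryos with neuronal cells they were lower. Because the major groups were drawn from the same expression values, no test was made between them.

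Within each embryo, the hematopoietic mean exceeded the non-blood mean for every member, in 7 of 7 embryos. For Hbb-y the difference ran from 1.15 in E11.5 embryo 2 to 10.4 in E9.5 embryo 1 on the log2 scale, with a mean of 4.24 ± 3.35 (SD, n = 7). Hematopoietic means varied more between embryos than non-blood means, and E9.5 embryo 1 had both the highest hematopoietic mean and the lowest non-blood mean (1.57). In hematopoietic cells of E9.5 embryos 1, 2 and 3, Hbb-y stood at 11.9, 10.9 and 5.98. The E10.5 embryos had 6.66 and 6.47, and 6.08 and 4.64 were the means of the E11.5 embryos. The 3 hematopoietic cells of E9.5 embryo 1 and 15 of the 19 of embryo 2 were of the primitive erythroid kind described next, and neither embryo gave a hematopoietic cell from the liver.

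To see which blood cells carried the embryonic globins, the 246 hematopoietic cells were clustered without the 12 hemoglobin genes. With 5 clusters, 95 cells with Alas2 and Slc4a1 among their leading genes formed an erythroid cluster, and with 6 clusters it split into 47 and 48 cells. The 47 cells, led by Alas2 and Slc4a1, had 9 of 9 primitive erythroid markers at a mean of at least 1 on the log2 scale and are called primitive-erythroid-like. That list was not specific to them, since macrophage-like cells reached this level for 7 of its 9 genes, but for the erythroid list the counts were 7 and 1 of the 7 genes the tables hold. They came from 16 libraries and from the forebrain (9 cells), hindbrain (12), heart (9), liver (10), lung (5), intestine (1) and somite (1). The 48 cells, led by Rgcc and Cd24a, reached it for 7 of 8 definitive erythroid markers, as did the Vamp5/Bcl11a and Rgs18/Mpo cells described next. All 48 came from the liver, 46 of them at E11.5, and are called definitive-erythroid-like. Another 86 cells, of which 85 came from the liver, were led by the definitive markers Vamp5 and Bcl11a and are called the Vamp5/Bcl11a cluster. On the erythroid list this cluster averaged 2.79 against 3.51 in the other hematopoietic cells. For erythro-myeloid progenitor markers its mean was 1.14 against 0.57, so the cluster is not named as a definitive red cell. The rest were 34 macrophage-like cells, 26 cells led by Fcer1g and Rgs18 (called Rgs18/Mpo cells), and 5 cells with the platelet genes Pf4 and Clec1b. Markers were taken from lists that partly go back to these cells, so they describe the clusters and are not independent evidence.

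Embryonic globins filled a large part of the primitive-erythroid-like transcriptome. The median level there was 42878 TPM for Hba-x, 52761 TPM for Hbb-y and 43166 TPM for Hbb-bh1, and the 3 genes together took a median of 13.9% of the UMIs of a cell, from 0.248% to 57.7%. Of the 47 cells, 46 exceeded 10 on the log2 scale for each of the 3 genes. The remaining cell had 562 TPM of Hba-x, 1634 TPM of Hbb-y and 279 TPM of Hbb-bh1. Mean Hbb-y in these cells was 12.2 in 9 forebrain cells, 12.7 in 12 hindbrain cells, 11.9 in 9 heart cells, 12.03 in 5 lung cells and 13.8 in 10 liver cells (log2 scale), so that cells picked outside the liver carried levels of the same order as those inside it.

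Definitive-erythroid-like cells held far less, with medians of 112 TPM for Hba-x, 223 TPM for Hbb-y and 264 TPM for Hbb-bh1. The Vamp5/Bcl11a cluster had medians of 177, 353 and 372 TPM, and the macrophage-like cells 191, 432 and 205 TPM, in the same order. In each of these clusters the 3 genes took a median of about 0.1% of the UMIs of a cell (0.0956%, 0.0959% and 0.0810%). In the 5 cells with platelet genes Hbb-y reached a median of 4704 TPM, against 738 TPM of Hba-x and 836 TPM of Hbb-bh1. With so few cells, these values describe those cells only.

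**Figure D1:**
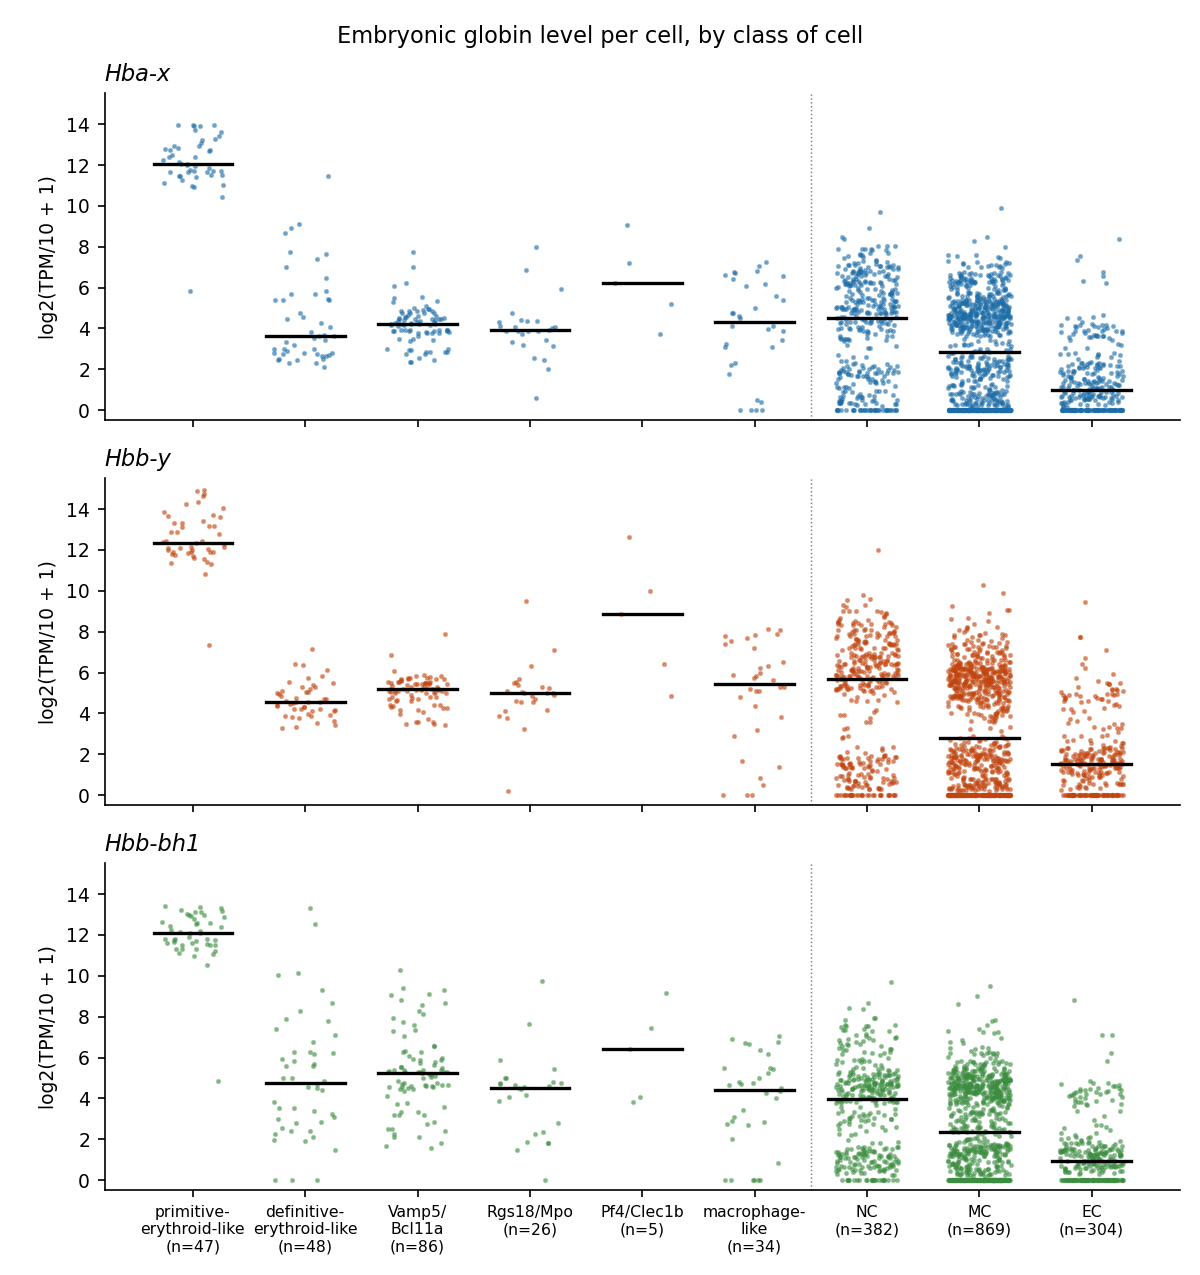
Level of each embryonic globin per cell on the scale log2(TPM/10 + 1), by cluster of hematopoietic cells (left of the dotted line) and by non-blood group (NC neuronal, MC mesoderm-derived, EC epithelial); each point is 1 cell and each bar is the median over cells. The 47 primitive-erythroid-like cells stand apart for all 3 genes, and Hbb-bh1 has a tail of high cells in the definitive-erythroid-like and Vamp5/Bcl11a cells that Hbb-y lacks.

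Other genes of the red cell separated the erythroid classes in different ways. Alas2, which catalyses the committed step of heme synthesis, averaged 7.24 on the log2 scale in primitive-erythroid-like and 3.71 in definitive-erythroid-like cells, and Hbq1b 4.78 and 2.68. The repressor of embryonic globins Bcl11a and its partner Sox6 showed the reverse order, with 0.26 against 3.39 and 0.11 against 2.10. Over the whole lists, the median gene stood at 4.97 and 4.67 for 14 heme synthesis genes, at 5.24 and 3.89 for 15 membrane and maturation genes and at 2.08 and 2.66 for 17 globin regulators, primitive first. These genes took part in the clustering, so the differences are descriptions.

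Genes with a pattern like that of the members were sought over 89 sets of cells, each holding at least 3 cells of 1 major group, organ and embryo. The Pearson r with the mean of the 3 members was 0.766 for Alas2, 0.746 for Ncf4 and 0.739 for Ube2l6, and 0.731 for Hbq1b. Between members r was higher, 0.987 for Hba-x with Hbb-y, 0.981 for Hba-x with Hbb-bh1 and 0.973 for Hbb-y with Hbb-bh1. Sets of the same library or embryo are not independent, and no p-value is attached to these correlations.

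The liver allowed blood cells to be followed over the 3 stages. Hematopoietic cells of the liver came from 5 embryos in 3 libraries, 1 library per stage, so stage and library cannot be told apart. Hba-x averaged 5.92 in E9.5 embryo 3 (15 cells), 5.15 and 4.92 in the 2 embryos of E10.5 (40 and 41 cells), then 4.24 and 4.22 in those of E11.5 (42 and 40 cells). Hbb-y averaged 6.78, 5.88, 5.86, 4.83 and 4.79 in the same embryos, and Hbb-bh1 averaged 6.54, 6.17, 6.54, 4.49 and 4.28. Hba-x and Hbb-y were lower at each later stage without overlap, whereas Hbb-bh1 was at the same level in E9.5 embryo 3 and E10.5 embryo 2.

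Fitted with limma across 11637 genes, the slope per day was -0.995 ± 0.13 (SE) for Hbb-y, with an adjusted p of 0.0120. For Hba-x it was -0.84 ± 0.15 and for Hbb-bh1 -1.21 ± 0.21, and both had an adjusted p of 0.0920 and did not pass the threshold of 0.05. Hbb-y was the only gene called lower with day, 0.00859% of the genes tested, and 4 genes were called in either direction (0.0344%); the other 3, named after their values were seen, were Mt1, Mt2 and Rgcc, each higher with day. None of the 14 heme synthesis, 15 membrane and maturation or 17 regulator genes tested was called, and their median slopes were 0.66, 0.82 and 0.18 against -0.04 over all genes.

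The slopes moved with the primitive-erythroid-like cells. These made up 3 of 15 liver hematopoietic cells in E9.5 embryo 3, 3 of 40 and 2 of 41 at E10.5, and 1 of 42 and 1 of 40 at E11.5. Without them the embryo means of Hbb-y were 5.18, then 5.28 and 5.42, then 4.58 and 4.55 in order of stage, and its slope was -0.38 ± 0.17 per day with an adjusted p of 0.289 in limma. The slopes without them were -0.17 ± 0.18 for Hba-x and -0.59 ± 0.28 for Hbb-bh1, with adjusted p of 0.681 and 0.332. Without E9.5 embryo 3, Hbb-y missed the threshold (adjusted p 0.108) while Hbb-bh1 passed it, with a slope of -1.97 and an adjusted p of 0.00319. Hbb-y also missed it without E11.5 embryo 1 (adjusted p 0.0923) and without E11.5 embryo 2 (0.306), while without E10.5 embryo 1 or 2 all 3 members passed. On log2(TPM + 1), which gives low values more weight, all 3 members were called lower, among 29 genes in either direction (0.249%), against 75 genes (0.649%) and no member in the fit without primitive-erythroid-like cells.

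**Figure D2:**
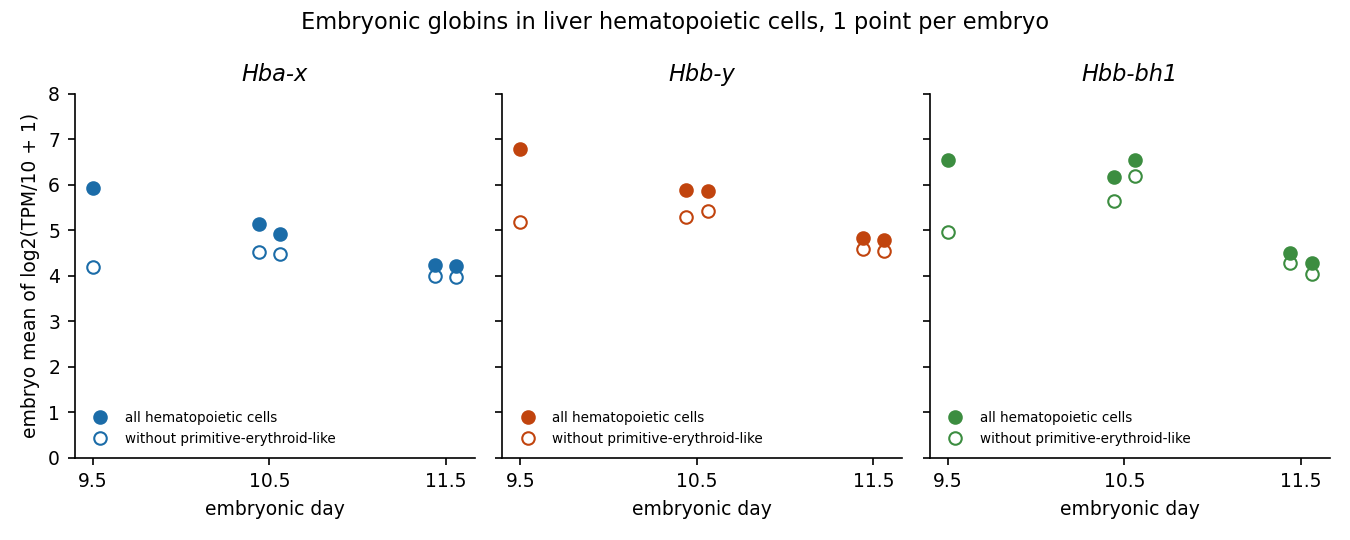
Mean of log2(TPM/10 + 1) over the hematopoietic cells of the liver by embryonic day, 1 point per embryo (embryos of a day are set slightly apart), with all cells (filled) and without the primitive-erythroid-like cells (open). Filled points of Hbb-y fall from 6.78 to about 4.8, while open points lie between 4.55 and 5.42.

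Among liver cells of the definitive-erythroid-like and Vamp5/Bcl11a clusters, Hbb-bh1 and, in fewer cells, Hba-x reached high levels. For each library, the highest value in any non-blood or macrophage-like liver cell was taken as a reference. It rests on 32 non-blood cells at E9.5, on 11 non-blood and 6 macrophage-like cells at E10.5 and on 5 of each at E11.5. Cells above it were counted among 133 liver cells of the definitive-erythroid-like and Vamp5/Bcl11a clusters. For Hbb-y the count was 0 of 133, which allows a share of up to 2.26% if cells are taken as independent. For Hba-x it was 9 and for Hbb-bh1 it was 30. The reference differed between genes, so these counts are not at equal levels. By stage it was 4018, 2296 and 1482 TPM for Hbb-y, 3909, 1002 and 740 TPM for Hbb-bh1, and 2544, 1077 and 1075 TPM for Hba-x. Hbb-y reached 1151 TPM in Vamp5/Bcl11a cells of E10.5 and 1404 TPM in definitive-erythroid-like cells of E11.5, above the Hbb-bh1 reference. By embryo the 30 cells fell as 1 of 7 in E9.5 embryo 3, 7 of 24 and 8 of 35 in E10.5 embryos 1 and 2, and 9 of 36 and 5 of 31 in E11.5 embryos 1 and 2. The 9 cells above it for Hba-x fell as 0, 1, 0, 3 and 5 in the same embryos, so that in E11.5 embryo 2 both genes had 5 cells, 4 of them shared. All 10 primitive-erythroid-like cells of the liver lay above the reference for all 3 genes. Rgs18/Mpo cells of the liver, left out of the 133, held such cells too. At E10.5, 1 of 11 lay above it for Hbb-bh1, at 8669 TPM, with Hbb-y of the 11 at no more than 459 TPM. At E11.5, 1 of 8 lay above it for each of the 3 genes, with Hbb-y up to 7356 TPM. At E9.5, 0 of 4 did for any gene. The clusters were formed without the hemoglobin genes, and the counts are descriptions over cells with no test.

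At E10.5, 57 liver cells of the Vamp5/Bcl11a cluster had a median of 432 TPM of Hbb-bh1 and a maximum of 12367 TPM, against a median of 227 TPM and a maximum of 283 TPM in 11 non-blood liver cells. For Hbb-y the medians were 396 TPM in the cluster and 308 TPM in the non-blood cells. A definitive-erythroid-like cell at E10.5 held 102991 TPM of Hbb-bh1, as much as the primitive-erythroid-like cells (58430 to 107116 TPM), with Hbb-y of the 2 such cells at no more than 811 TPM. At E11.5, 46 definitive-erythroid-like cells reached 58795 TPM of Hbb-bh1 and 28037 TPM of Hba-x, while Hbb-y stayed at or below 1404 TPM. The spread over cells showed the same difference in the 59 liver cells of both clusters at E10.5. Quartiles were 5.04 and 6.93 for Hbb-bh1 against 5.12 and 5.55 for Hbb-y (log2 scale).

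**Figure D3:**
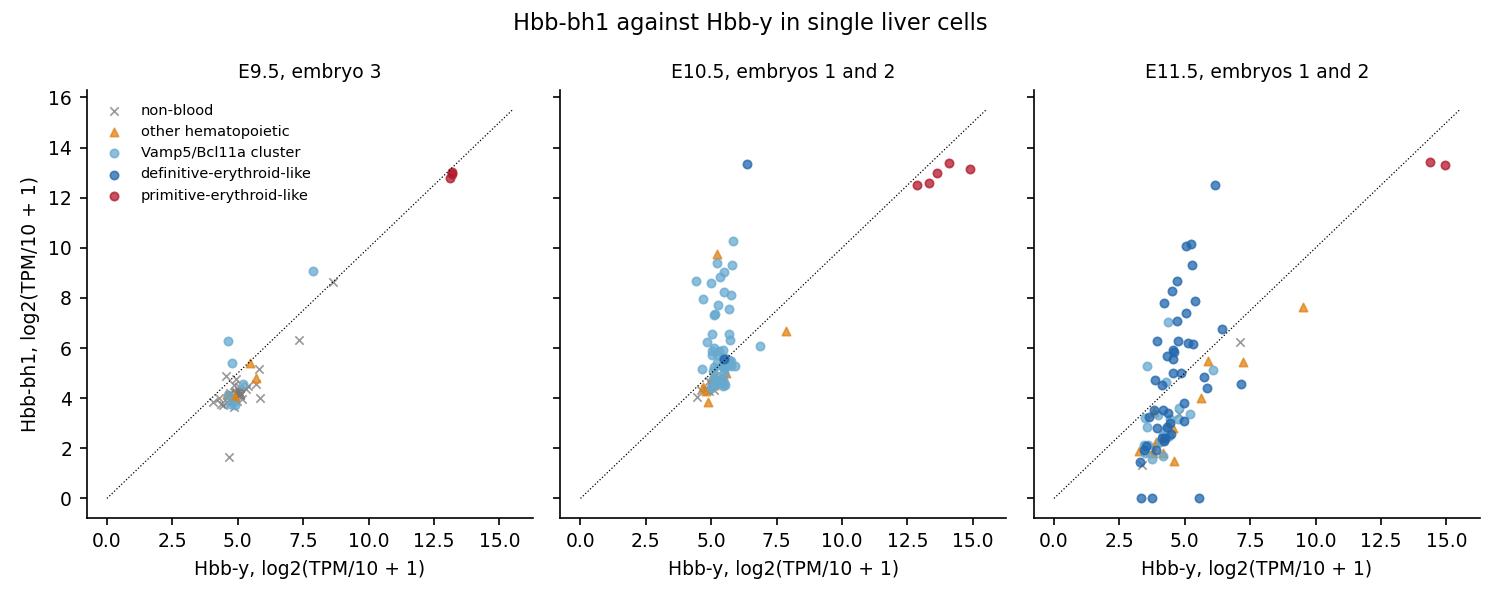
Hbb-bh1 against Hbb-y in single liver cells, both as log2(TPM/10 + 1), in E9.5 embryo 3 and in both embryos of E10.5 and E11.5; the dotted line marks equal levels. Definitive-erythroid-like and Vamp5/Bcl11a cells extend upward in Hbb-bh1 at a nearly constant Hbb-y, whereas primitive-erythroid-like cells are high in both.

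The balance of the 2 beta-like genes showed the same tail. In cells with at least 50 UMIs of the pair, Hbb-bh1 made up on average 45.1% of Hbb-bh1 and Hbb-y UMIs in the 21 primitive-erythroid-like cells of E9.5, 41.4% in the 16 of E10.5 and 28.1% in the 10 of E11.5. By stage in the same order, the Vamp5/Bcl11a cells averaged 50.02% in 7 cells, 57.8% in 57 and 32.1% in 18, and the definitive-erythroid-like cells 54.2% in 40 at E11.5. Single definitive-erythroid-like cells at E11.5 ran from 13.9% to 98.8%, a far wider spread than the 14.6% to 36.8% of the primitive-erythroid-like cells. These are averages over cells and carry no test.

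Over all hematopoietic cells with that minimum of UMIs, the Hbb-bh1 share averaged 47.5%, 41.1% and 45.6% in the 3 embryos of E9.5. It was 47.8% and 52.5% in those of E10.5, then 44.4% and 36.5% in those of E11.5. Its slope was -1.70 percentage points per day, with an exact two-sided permutation p of 0.533 over the 7 embryos (0.711 after adjustment over 4 share tests). Primitive-erythroid-like cells alone gave 47.5%, 44.5% and 45.9% for the embryos of E9.5, 43.6% and 38.6% for those of E10.5, and 27.4% in E11.5 embryo 1, whose 9 cells are all that counted for that stage because embryo 2 had only 1. The slope was -8.39 points per day, with an exact permutation p of 0.0167, the smallest that 6 embryos in these stages allow. This subset was chosen after seeing the data, its p is not adjusted, and E11.5 rests on 1 embryo. Hematopoietic cells outside the liver gave -13.2 points per day (exact permutation p 0.0222, again the smallest possible for 6 embryos, and 0.0444 after adjustment), whereas those of the liver gave -1.81 over 5 embryos (exact permutation p 0.733, adjusted 0.978). Outside the liver the kinds of cell changed with stage. All 3 cells of E9.5 embryo 1 were primitive-erythroid-like, while the only such cell of E11.5 embryo 2 came from the liver. The lowest embryo mean outside the liver, 10.9%, lay below every single primitive-erythroid-like cell (lowest 14.6%), so stage and kind of cell cannot be told apart there. The share of Hba-x among alpha-like UMIs (Hba-x, Hba-a1 and Hba-a2) lay between 99.991% and 100% in every embryo. Its slope was tested as well, with exact permutation p of 0.229 in hematopoietic and 1.0 in non-blood cells, and these are 2 of the 4 share tests. With 0 UMIs of Hba-a1 and 4 of Hba-a2 this share could hardly vary, so these 2 tests had no contrast to detect.

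Embryonic globin UMIs also reached most non-blood cells. Of 1555 such cells, 77.5% held a UMI of Hba-x (95% exact binomial interval 75.3% to 79.5%), 81.1% one of Hbb-y (79.1% to 83.0%) and 77.7% one of Hbb-bh1 (75.6% to 79.8%), at a median depth of 291580 UMIs per cell. These intervals cover counting error only. Thinned to 20000 UMIs per cell, the shares were 55.6%, 56.8% and 51.8%, and those of hematopoietic cells, at a median depth of 437877, were 87.0%, 97.2% and 89.4%. Median levels over the non-blood cells were 41.1 TPM for Hba-x, 43.0 TPM for Hbb-y and 25.4 TPM for Hbb-bh1. Upper quartiles were 290, 555 and 216 TPM in the same order. Those of Hba-x and Hbb-y lay above the hematopoietic medians of 208 and 380 TPM, and that of Hbb-bh1 lay below 382 TPM. Only 2 non-blood cells exceeded 10 on the log2 scale for Hbb-y, and 0 did for Hba-x or Hbb-bh1.

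Levels in non-blood cells went with the library, which is nearly always 1 organ at 1 stage, so that library and organ by stage cannot be told apart. Library explained 88.3% of the variance of Hba-x among non-blood cells, 89.3% of Hbb-y and 84.9% of Hbb-bh1. Organ by embryo explained 89.6%, 90.3% and 86.1%. Organ alone explained 35.1%, 35.1% and 31.2%, day 1.77%, 5.08% and 5.55%, and major group 12.1%, 11.2% and 10.3%. In 15 cases where both embryos of a stage shared a library and an organ, their means differed by a median of 0.33 for Hba-x, 0.43 for Hbb-y and 0.36 for Hbb-bh1, while the 50 sets of organ and embryo ranged from 0 to 7.47, 8.38 and 7.31. Epithelial and mesoderm-derived cells of the same library and organ differed by medians of 0.03, -0.05 and -0.01 in 15 comparisons, with single differences of Hbb-y from -0.58 to 0.86. Neuronal cells could be set beside mesoderm-derived cells in only 2 such comparisons, with medians of 0.19, 0.16 and 0.23, and Hbb-bh1 was higher in neuronal cells in both.

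Libraries with and without primitive-erythroid-like cells hardly overlapped in their non-blood cells. In the 16 libraries in which at least 1 such cell had been picked, the non-blood mean of Hbb-y ran from 1.93 to 8.10 with a median of 5.87, and in the other 16 libraries from 0 to 2.76 with a median of 0.64. Medians were 4.92 against 0.62 for Hba-x and 4.57 against 0.56 for Hbb-bh1. The E10.5 forebrain library, with 7 such cells, was the highest, at 7.15, 8.10 and 7.01 for Hba-x, Hbb-y and Hbb-bh1. In the E10.5 lung library, with none, 1 of 58 non-blood cells held a UMI of Hba-x and 0 held one of Hbb-y or Hbb-bh1, which allows a share of up to 5.17%.

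**Figure D4:**
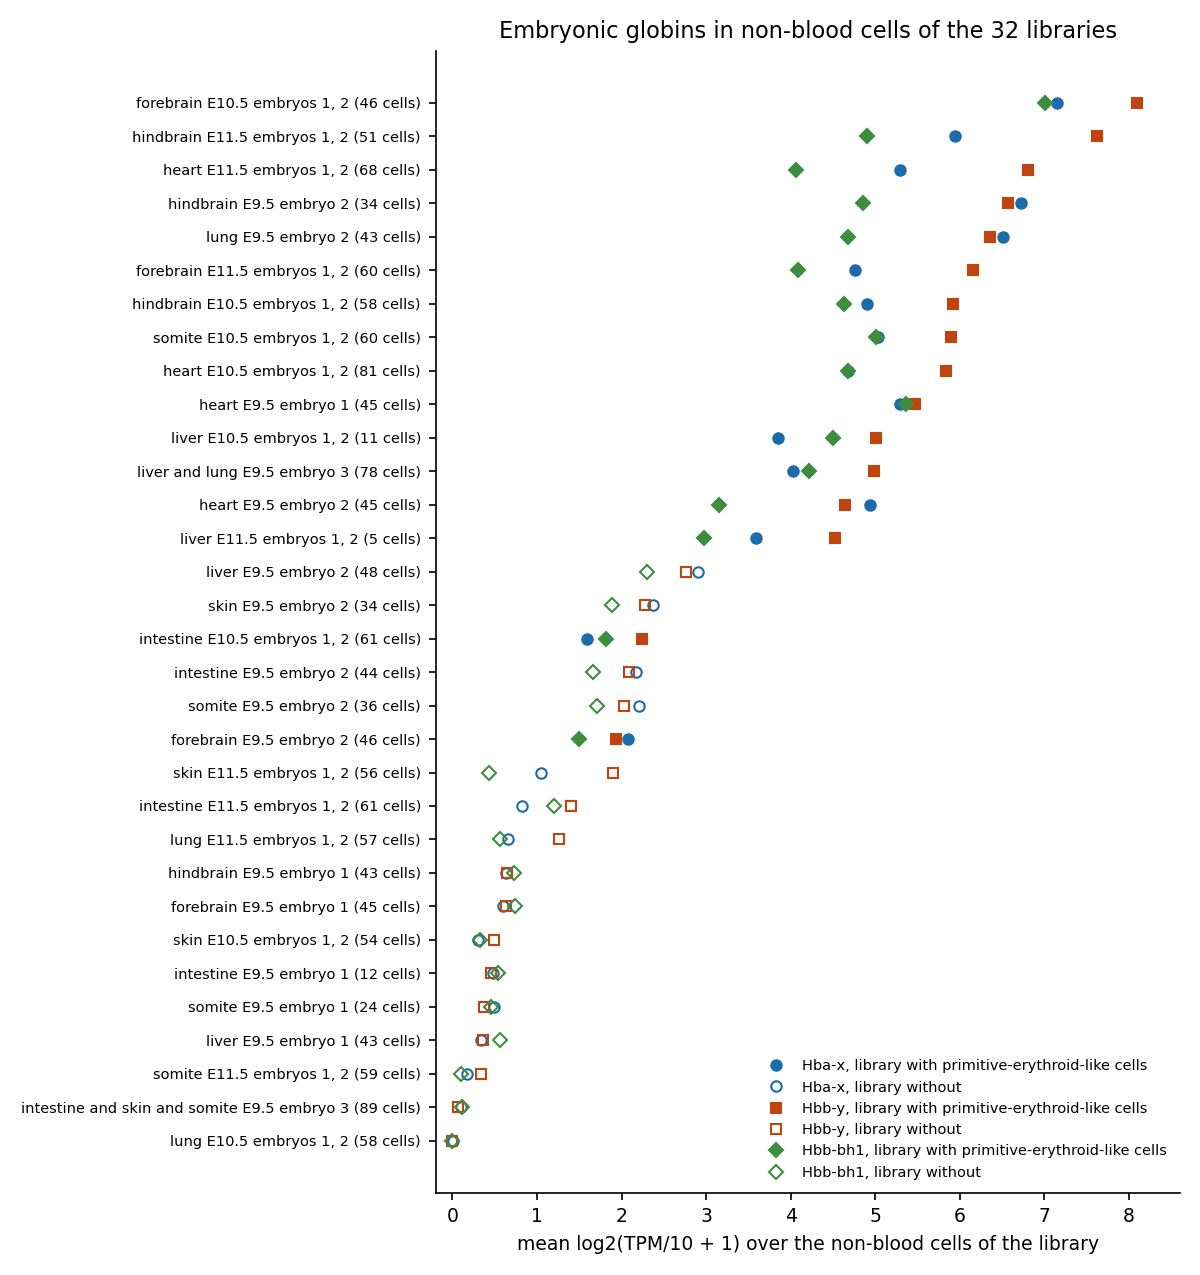
Mean of log2(TPM/10 + 1) of each embryonic globin over the non-blood cells of the 32 libraries, ordered by Hbb-y, with the number of cells in parentheses; filled symbols mark the 16 libraries that also hold primitive-erythroid-like cells. Filled libraries reach 8.10 for Hbb-y and open ones stay at or below 2.76.

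Other red cell genes followed the globins only faintly in these cells. Between the 14 libraries with a non-blood mean of Hbb-y of at least 4 and the 9 libraries below 1, the mean difference was 5.78 for Hbb-y, 4.95 for Hba-x and 4.32 for Hbb-bh1, the 3 largest of 17151 genes, followed by the cardiac gene Myl7 with 2.34. Alas2 stood at 0.31 against 0.04 and Hbq1b at 0.07 against 0.00. The median difference was -0.06 over 14 heme synthesis genes, 0.06 over 15 membrane and maturation genes and 0.07 over 17 regulators, against -0.02 over all genes. Since the libraries were split by Hbb-y itself, these values are descriptions. Whether the globin UMIs of non-blood cells came from free RNA of lysed red cells, from the pooling of barcoded cDNA within a library or from the cells themselves was not tested.

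By organ, the non-blood level of Hbb-y was highest in the heart and brain. Over embryos, the lowest, median and highest means were 4.64, 5.85 and 7.01 in the heart (6 embryos), 0.65, 6.26 and 7.88 in the hindbrain (6), 0.63, 6.16 and 8.38 in the forebrain (6), 0.37, 4.72 and 5.12 for liver (6), 0.00, 1.25 and 6.36 for lung (6), 0.07, 0.56 and 6.00 in the somite (7), 0.13, 1.49 and 2.89 in the intestine (7) and 0.00, 1.09 and 2.28 in the skin (6). Means of organs that are neighbours in this order differed by less than the SD between their embryos. The heart was the steadiest organ for Hba-x, at 5.03 ± 0.33 (SD, n = 6), whereas forebrain, hindbrain, lung and somite each ranged over more than 5 log2 units.

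Organs differed for all 3 members when each organ and embryo counted as 1 value, with day as covariate. The adjusted p of limma's F-test was 5.8e-04 for Hba-x, 4.1e-04 for Hbb-y and 0.00135 for Hbb-bh1 over 50 values, but 52.7% of 17151 genes passed the same test. Both embryos of a stage mostly share libraries, and with 1 value per library and organ (35 values) the adjusted p was 0.0596, 0.0570 and 0.0899, and none of the 3 passed, while 38.7% of genes did. Liver against the mean of the other organs gave 0.28 ± 0.79 (SE) for Hba-x, 0.58 ± 0.89 for Hbb-y and 0.70 ± 0.73 for Hbb-bh1, with adjusted p of 0.828, 0.696 and 0.561, and 2.20% of genes were called. Liver, where blood forms at this age, was therefore not shown to differ in its non-blood cells, and the errors leave room for differences of more than 1 log2 unit.

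Change with day was not detected in non-blood cells. After adjustment for organ, the means of Hbb-y were 0.63, 3.58 and 3.39 for E9.5 embryos 1, 2 and 3, 4.07 and 4.29 for those of E10.5 and 3.87 and 3.62 for those of E11.5. Slopes per day were 0.21 ± 0.37 (SE) for Hba-x, 0.67 ± 0.40 for Hbb-y and 0.18 ± 0.33 for Hbb-bh1, with limma adjusted p of 0.765, 0.333 and 0.787 over 7 embryos, and 0.391% of genes were called. E9.5 embryo 1 decided the size and, for Hba-x and Hbb-bh1, the sign: without it the slopes were -0.28, 0.12 and -0.22. In the 5 embryos labelled HiSeq 4000 they were -0.22, -0.023 and -0.43, with adjusted p of 0.452, 0.949 and 0.316. Slopes of the organs ranged from -2.19 per day in the lung to 2.44 in the forebrain for Hbb-y, and the test of their difference gave adjusted p of 0.186 for Hba-x, 0.116 for Hbb-y and 0.278 for Hbb-bh1, where 23.3% of genes passed.

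The Hbb-bh1 share was followed in non-blood cells too. Only cells with at least 50 UMIs of the pair counted. These were 48 of 212, 209 of 330 and 72 of 167 non-blood cells in E9.5 embryos 1, 2 and 3. At E10.5 they were 114 of 202 and 136 of 227, and at E11.5 94 of 208 and 87 of 209. Embryo means were 48.3%, 30.7% and 36.4% for E9.5, 32.5% and 31.5% for E10.5, and 15.997% and 15.3% for E11.5, the last 2 below all others. No adjustment for organ was made, so organ and day cannot be told apart in these means. The slope was -11.1 points per day, with an exact permutation p of 0.0143 over 7 embryos and 0.0572 after adjustment over 4 share tests, which misses the threshold. That adjustment counts the Hba-x share tests, which had no contrast to detect. The test counts 7 independent embryos, although both embryos of E10.5 and both of E11.5 shared their libraries and lay close together. In the 5 HiSeq 4000 embryos it was -11.2, with an exact permutation p of 0.0333, the smallest these embryos allow, and 0.133 after adjustment.

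Within libraries, with UMIs summed over cells, the non-blood share was set beside that of the primitive-erythroid-like cells. It was lower in 13 of 16 libraries, by a median of 12.8 percentage points over the 16 (range -3.39 to 21.4). In the E11.5 heart library it was 12.9% against 34.1%, in the E11.5 hindbrain library 13.3% against 28.4%, and in the E9.5 hindbrain library of embryo 2 23.6% against 44.8%. The E10.5 forebrain library gave 32.3% against 44.8%. Macrophage-like and Rgs18/Mpo cells lay near the non-blood value, with 12.4%, 14.4%, 22.5% and 31.5% in the same 4 libraries. In the E9.5 heart library of embryo 1 (48.7% against 47.5%) and the E10.5 liver library (39.5% against 39.4%) the shares were close. Few primitive-erythroid-like cells stand behind each value, from 1 to 7 per library. Hba-x took 43.5% of the UMIs of the 3 genes in the non-blood cells of E9.5 embryo 2 and 33.2% in its primitive-erythroid-like cells, but 20.6% against 31.2% in E11.5 embryo 1.

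**Figure D5:**
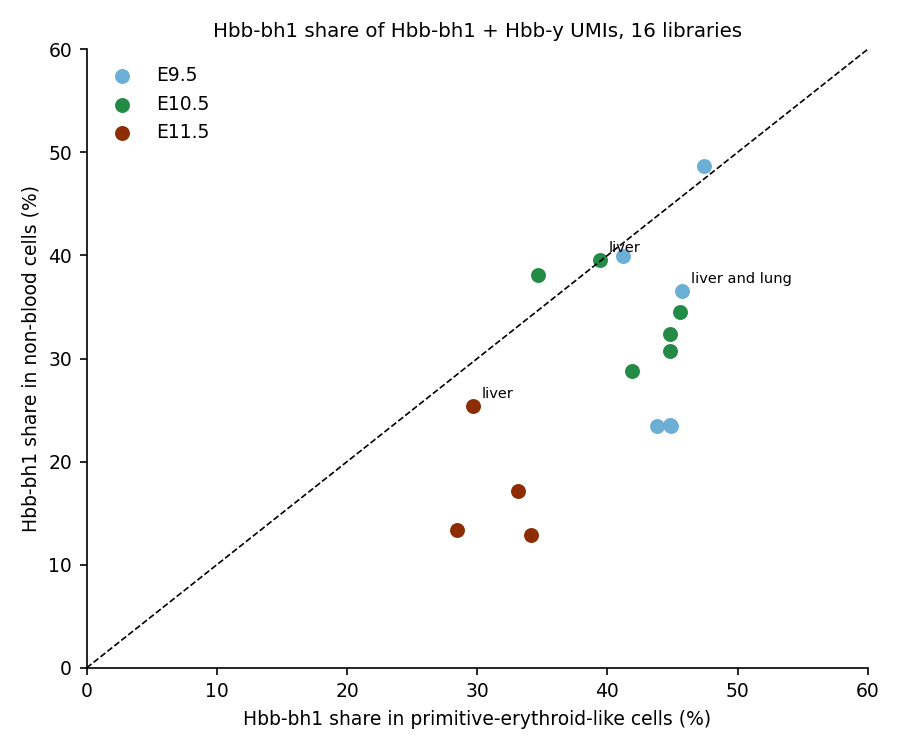
Hbb-bh1 as a percentage of Hbb-bh1 and Hbb-y UMIs in the non-blood cells (vertical) against the primitive-erythroid-like cells (horizontal) of the same library, for 16 libraries coloured by stage; the dashed line marks equal shares. Points of 13 libraries lie below the line, by up to 21.4 percentage points, and the 4 E11.5 libraries sit lowest on the horizontal axis, at 28.4% to 34.1%.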

How the data were processed

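Single cells were captured with a modified STRT protocol that tags the 3′ end of transcripts. The authors aligned reads to mm10 with TopHat 2.0.12, counted uniquely mapped reads with HTSeq (its version is not given in the sources used here), removed duplicate UMIs and deposited values per 1000000 UMIs of a cell, termed TPM and equivalent to CPM. Whole UMIs were recovered from 100% of the values (tolerance 0.05 UMIs). Of 1916 cells, 1819 were in the study's embedding, and 14 columns identical to another column were counted once. Depth was 20326 to 2524348 UMIs per cell.

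Values were averaged per embryo as log2(TPM/10 + 1) and compared across all genes with limma, with Benjamini-Hochberg adjustment. Genes were called at an adjusted p under 0.05 and a slope of at least 0.5 per day or a difference of at least 1. edgeR's quasi-likelihood test on summed UMIs was an alternative. Shares were tested by exact permutation of embryos among stages. Hematopoietic cells were grouped by Ward clustering of 20 principal components of 2000 variable genes. The members, the other hemoglobin genes, 5 genes most like the members and 3 lists, of which the most extreme genes were named, were chosen with earlier results of these data known, and so were the marker lists. Some of the named genes are not reported here. Doublets were not searched for, since cells were picked singly. Embryos are separate animals, and p-values of the day slopes and share tests measure the spread between them. Those of the tests between organs, including the test of organ slopes, measure the spread of organ-by-embryo values. The main fits between organs held no block for embryo. Both embryos of E10.5 and both of E11.5 shared libraries, so there the spread between embryos is one within a library. Organ values of the same embryo deviated together only weakly (median r 0.071 over 151 pairs, range -0.277 to 0.468), the pairing being by animal. Pairs of different embryos gave a median of -0.068 over 202 pairs (range -0.468 to 0.286). Where a day has only a pair of embryos, their deviations from its organ mean are opposite, so this value is no independent reference. The r does not describe the members alone, for which E9.5 embryo 1 was low in several organs. The scripts were tested on simulated data, with Python 3.11.15 and SciPy 1.17.1.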

Additional observations from a re-analysis of the deposited data

Results flagged for a closer look

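Non-blood cells of E9.5 embryo 1 were low in several organs but not in all. Its organ-adjusted mean was 0.719 for Hba-x and 0.632 for Hbb-y, while the other 6 embryos lay between 2.67 and 3.74 and between 3.39 and 4.29. In the hindbrain it had 0.637 for Hba-x, 0.647 for Hbb-y and 0.725 for Hbb-bh1, and in the liver 0.336 for Hba-x. Its heart was not low, with 5.29 for Hba-x, 5.47 for Hbb-y and 5.37 for Hbb-bh1, the last being the highest of the 6 heart values, and its somite lay above that of E9.5 embryo 3. Skin of E9.5 embryo 2 was the one value that lay far above the others, with 1.89 for Hbb-bh1. Of 47 groups of embryos tested for a value apart from the rest, 7 held one, and chance gives about 1 in 20. All of these values except that of the skin came from E9.5 embryo 1. The groups reuse the same embryos for 3 genes that vary together, so they are not independent and the count cannot be judged against chance.

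The 97 deposited cells outside the study's embedding also held embryonic globin UMIs. At a median depth of 9499 UMIs, 66.0% held one of Hba-x, 72.2% one of Hbb-y and 67.01% one of Hbb-bh1, and 3, 4 and 3 of them reached 10000 TPM. These cells carry no group and were left out of every comparison.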

How the results depend on the processing

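In liver hematopoietic cells all 3 slopes stayed negative under every alternative run. Hba-x and Hbb-bh1 were called on log2(TPM + 1), at -0.89 and -1.33. Hbb-y lost its call with no gene filter (-0.995), with medians over cells (-0.35), after thinning to 20000 UMIs (-1.03), without primitive-erythroid-like cells (-0.38, chosen after seeing the data) and in edgeR (-0.74). Its adjusted p over the 14 alternatives ran from 2.5e-04 to 0.805. Leaving out each embryo gave -0.85 to -0.81 for Hba-x, -1.06 to -0.97 for Hbb-y and -1.97 to -1.03 for Hbb-bh1. The 4 genes called became 29 on log2(TPM + 1), 75 without primitive-erythroid-like cells, 0 with no filter, medians, thinning or edgeR, and 0 to 69 on leaving out an embryo. At an unadjusted p under 0.05, 1633 genes passed with no filter, 812 with medians, 1239 after thinning and 1300 in edgeR.

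Among organs, F was 2.77, 2.81 and 2.46 for Hba-x, Hbb-y and Hbb-bh1 with 1 value per library (added after seeing the data), and 2.41 for Hbb-y and 2.40 for Hbb-bh1 in edgeR, none of which passed. Medians over cells called 4160 genes. Liver against other organs turned to -0.36, -0.14 and -0.072 with at least 10 cells per mean, and to -0.11 for Hba-x in edgeR. The 377 genes called became 1650 on log2(TPM + 1), 134 with at least 10 cells, 589 with medians, 699 in HiSeq 4000 libraries and 2093 in edgeR.

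The non-blood day slope turned to -0.22, -0.023 and -0.43 in HiSeq 4000 libraries and to -0.24 for Hba-x and -0.27 for Hbb-bh1 in edgeR. Leaving out each embryo gave -0.28 to 0.50 for Hba-x, 0.12 to 0.88 for Hbb-y and -0.22 to 0.42 for Hbb-bh1. The 67 genes called became 703 on log2(TPM + 1), 0 with no filter, 130 with at least 10 cells, 12 with medians, 0 after thinning, 21 in HiSeq 4000 libraries, 181 with 1 value per library, 777 in edgeR and 0 to 342 without an embryo. With the embryo as a replicate block 160 genes were called, the member slopes were 0.14, 0.61 and 0.13, and the block changed no call of a member.

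The Hbb-bh1 share slope in non-blood cells was -10.9 and passed with a minimum of 20 UMIs (exact permutation, adjusted p 0.0190). In hematopoietic cells it turned to 3.27 with a minimum of 200 UMIs, was -13.2 outside the liver, -1.81 in the liver and -8.39 in primitive-erythroid-like cells, and ran from -3.05 to 0.957 without an embryo, positive only without E11.5 embryo 2. The highest minus the lowest cluster mean was 8.21, 7.91 and 8.17 with 6 clusters. Non-blood shares with a UMI fell to 55.6%, 56.8% and 51.8% after thinning. The cause of these changes was not tested. Depth limits the low end: 1 UMI is worth more TPM in a shallow cell than the levels of the lowest libraries.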
